A study of Mus musculus with 6 samples.

Results

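A set of 9 genes of double-stranded RNA sensing were followed in cultured mouse keratinocytes that had lost the maintenance DNA methyltransferase DNMT1: 5 RNA sensors (Ddx58, Ifih1, Dhx58, Tlr3 and Eif2ak2), the RNA editor Adar, the adaptor Mavs, the kinase Tbk1 and the transcription factor Irf3. They were taken by name from the gene count table, where all 9 of them were present among 43629 gene identifiers, and all 9 passed the filter on low counts. Retroelement reads counted in the same libraries were set beside them. Of the 9 genes, Dhx58 rose past the test, by 1.75 on the log2 scale, from 24 to 58 reads per control library. Its call was lost without control library 2, control library 3 or knockout library 3. Ifih1, Tlr3 and Ddx58 had higher values in each knockout library than in any control library without passing the test. Such a separation was found in 18.2% of all genes tested. Ifih1 did pass in a fit that pairs same-numbered libraries and in DESeq2. The other 5 genes differed between the groups by at most 0.04 on the log2 scale.

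Keratinocytes came from the epidermis of female mice at postnatal day 3 and were grown for 5 days, as the labels and methods give it (a figure legend of the study gives a shorter culture), before poly(A)-selected RNA was sequenced, with 3 control and 3 Dnmt1Δ/Δep libraries (genotype labels "control" and "Dmnt1 knock-out"). In Dnmt1Δ/Δep mice a Keratin 5-Cre transgene deletes floxed Dnmt1 in keratinocytes from embryonic life on, and the study describes controls as Dnmt1 f/f or Dnmt1 f/+ mice without Cre, all on a mixed C57BL/6J and 129SV background. The question put to these cultures was whether the response of Dnmt1-deficient keratinocytes is their own, away from the inflamed skin.

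Long double-stranded RNA is rare in healthy cytoplasm and is read as a sign of virus. RIG-I (Ddx58) and MDA5 (Ifih1) are helicases that bind such RNA in the cytoplasm and signal through MAVS on mitochondria, while LGP2 (Dhx58) lacks the signalling domain and tunes the other two. TLR3 reads double-stranded RNA in endosomes and signals through the adaptor TRIF. Both routes reach the kinase TBK1, which phosphorylates IRF3 to switch on interferon genes. PKR (Eif2ak2) stops translation when it binds double-stranded RNA, and ADAR1 (Adar) edits adenosines in the cell's own duplexes so that MDA5 does not see them. Transcripts of endogenous retroviruses and of inverted SINE copies are known sources of such duplexes.

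Several of these sensors are themselves interferon-induced, and their promoter sequences were searched for the letters that interferon-activated factors are known to read. RefSeq windows (GRCm38.p6, 250 bases before to 50 bases after a transcription start) were on hand for 8 of the 9 genes, 10 windows in all. Dhx58 had no entry. Both strands were searched for GAAANGAAA and GAAANNGAAA, the core of the interferon-stimulated response element with a spacer of 1 or 2 bases. The spacer of 1 base was added after the promoters had been seen. With the spacer of 2 bases alone, windows of 3 genes held a match (Ddx58, Ifih1 and Eif2ak2), a spacing found in 3.44% of all 32851 windows and in 3.99% of 27025 genes. With both spacers there were 4 genes, Adar being added, and 6.27% of windows and 7.27% of genes. Since the motifs were widened on these windows, the second count is a description only. The 4 windows are printed because they belong to 2 genes that were higher in every knockout library (Ddx58, Ifih1) and 2 that were not (Eif2ak2, Adar). They lie at chr4:40239776-40240075 (minus strand, Ddx58), chr2:62646206-62646505 (minus strand, Ifih1), chr17:78882523-78882822 (minus strand, Eif2ak2) and chr3:89730468-89730767 (plus strand, the third of 3 Adar windows), each read in the direction of the gene with the matched letters in capitals.
Ddx58: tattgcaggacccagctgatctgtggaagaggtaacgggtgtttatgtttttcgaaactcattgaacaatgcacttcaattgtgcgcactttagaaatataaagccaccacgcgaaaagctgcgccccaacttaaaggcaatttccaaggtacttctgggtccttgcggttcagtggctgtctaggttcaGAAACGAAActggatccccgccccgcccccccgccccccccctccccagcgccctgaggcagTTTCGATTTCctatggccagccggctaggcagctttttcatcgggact
Ifih1: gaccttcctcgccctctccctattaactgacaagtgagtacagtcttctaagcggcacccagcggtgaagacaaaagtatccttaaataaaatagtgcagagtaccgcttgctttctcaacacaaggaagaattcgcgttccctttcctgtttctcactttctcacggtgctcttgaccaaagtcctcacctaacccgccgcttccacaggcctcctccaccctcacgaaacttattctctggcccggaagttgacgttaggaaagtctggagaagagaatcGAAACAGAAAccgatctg
Eif2ak2: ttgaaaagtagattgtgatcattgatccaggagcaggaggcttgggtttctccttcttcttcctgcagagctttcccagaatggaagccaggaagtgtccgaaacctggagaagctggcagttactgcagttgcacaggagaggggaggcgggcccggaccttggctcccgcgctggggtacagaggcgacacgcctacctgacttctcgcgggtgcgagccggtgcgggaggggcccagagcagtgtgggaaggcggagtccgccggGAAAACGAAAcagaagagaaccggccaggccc
Adar: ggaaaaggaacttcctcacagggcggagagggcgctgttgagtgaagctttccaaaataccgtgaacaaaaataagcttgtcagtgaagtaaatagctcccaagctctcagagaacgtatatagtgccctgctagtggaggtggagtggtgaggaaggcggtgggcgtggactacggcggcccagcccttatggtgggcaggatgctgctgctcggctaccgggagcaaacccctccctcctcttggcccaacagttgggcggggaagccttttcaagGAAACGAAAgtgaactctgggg
The Ddx58 window held 2 matches, GAAACGAAA starting 60 bases before the start site and a GAAANNGAAA on the other strand. The match in Ifih1 (GAAACAGAAA), Eif2ak2 (GAAAACGAAA) and Adar (GAAACGAAA) lay within the first 50 transcribed bases, at 33, 19 and 29 bases after the start. No match was found in the windows of Mavs, Tlr3, Irf3 and Tbk1. A match to these letters was thus present both in genes whose libraries separated by genotype and in genes whose libraries did not.

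Libraries held 53433121 to 115526598 reads in genes and 4940679 to 28673709 reads in repeats. Counts per 1000000 gene reads (CPM) below are scaled by edgeR's TMM factors, which ran from 0.980 to 1.02. Dnmt1 itself stood at 394, 379 and 324 CPM in control libraries 1, 2 and 3 and at 49.7, 54.3 and 50.7 CPM in the knockout libraries, 14.1% of control. The defining keratinocyte markers Krt5 and Krt14 were abundant in every library, and the summed level of 8 keratinocyte markers ran from 28719 to 32308 CPM in control and from 21502 to 22181 CPM in knockout libraries. Of the 8 markers 5 had negative and 3 positive changes. Krt5 (−0.50) and Krt14 (−0.61), which make up most of the sum, passed the adjusted p (0.038 and 0.028) as lower, under 2-fold, while Itgb4 (0.17), Itga6 (0.18), Dsg3 (0.02) and Trp63 (−0.26) did not pass. The differentiation keratins Krt1 (−2.30, adjusted p = 0.085) and Krt10 (−1.58, adjusted p = 0.069) had lower means without passing, with Krt1 at 53.2, 356 and 530 CPM in control and 66.1, 59.2 and 65.5 CPM in knockout libraries, and the part of this shift in the sensor values was not tested. Over 16829 genes tested with edgeR's quasi-likelihood test, 6.03% were called higher and 0.392% lower, at a Benjamini-Hochberg adjusted p of at most 0.05 and a change of at least 1 on the log2 scale. Same-numbered control and knockout libraries shared a sequencing lane and deviated together, so a fit with the number as a block is given where it changes a call. Nothing in the labels ties a control and a knockout mouse to one litter.

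Per length of transcript, the 9 genes fell into separate tiers in control cells. Tbk1 stood highest at 11.9 ± 0.378 RPKM (CPM per kilobase of exon, mean ± SD, n = 3), followed by Irf3 at 10.7 ± 0.482. The next were Adar at 9.63 ± 0.547, Eif2ak2 at 9.53 ± 1.01, Ddx58 at 9.36 ± 1.60 and Mavs at 8.61 ± 0.175 RPKM, and none of these 4 differed from the next in this order beyond their spread. The lower tier held Tlr3 at 1.02 ± 0.384 and Ifih1 at 0.866 ± 0.468 RPKM, which overlapped, and Dhx58 at 0.154 ± 0.0247 RPKM. Among 16713 tested genes with a known exon length, Ddx58 sat at the 68.5th percentile of control level, Ifih1 at the 33.2nd and Dhx58 at the 15.7th. In knockout cells Ddx58 was listed highest at 12.2 ± 0.594 RPKM, above Tbk1 at 11.7 ± 0.554, and these did not differ beyond their spread. Ddx58 was the most abundant of the 3 RIG-I-like receptor transcripts in both genotypes.

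**Figure D1:**
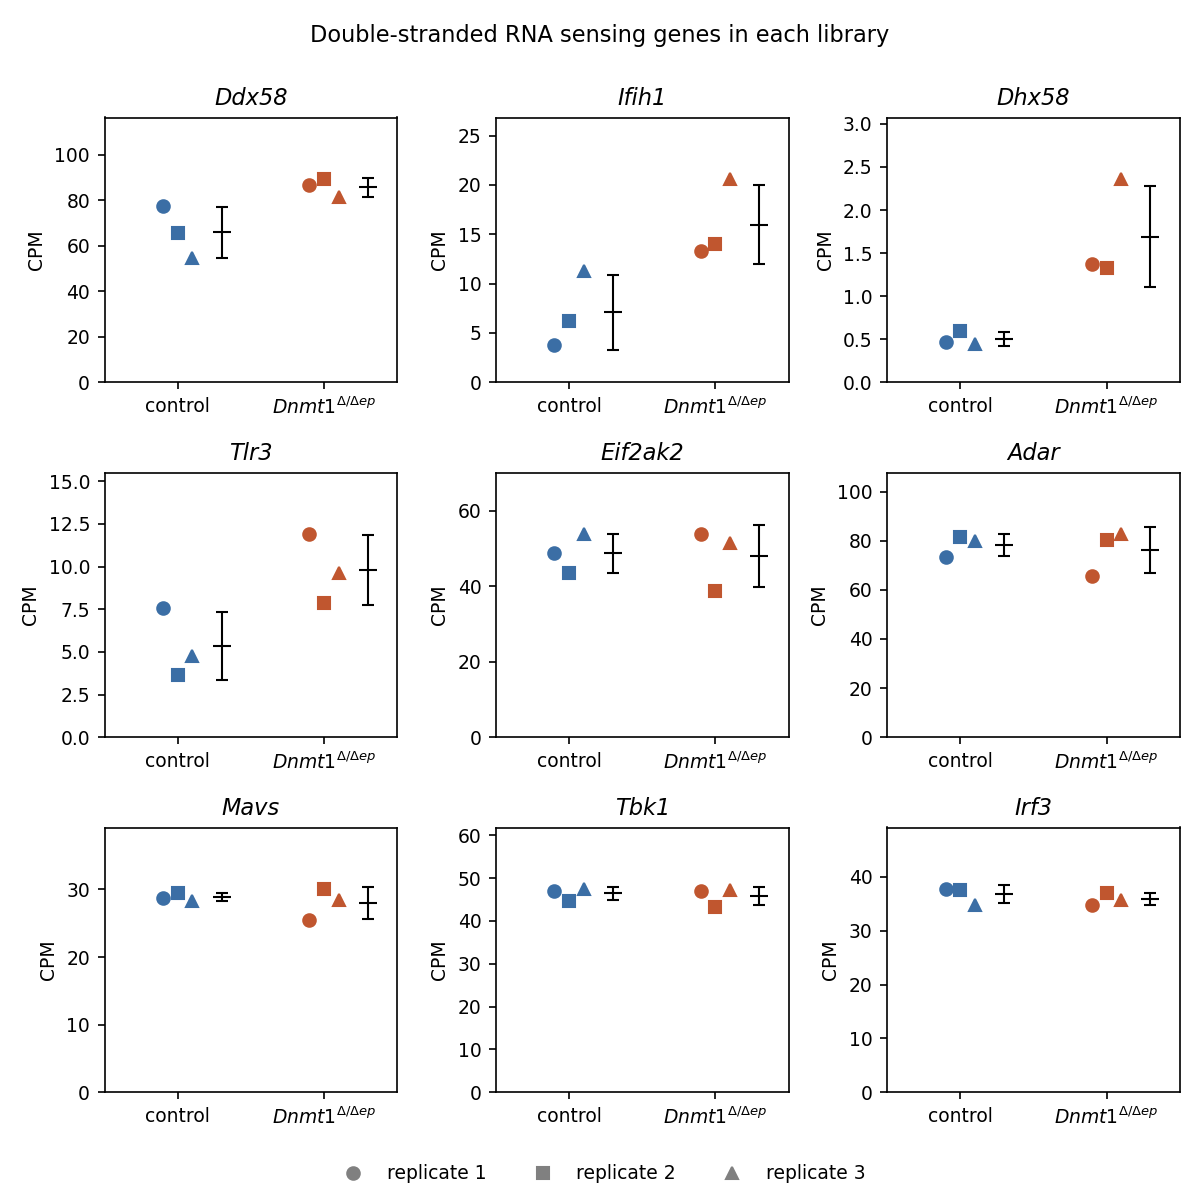
Level of each of the 9 genes in CPM (vertical axes, from 0) in the 3 control and 3 Dnmt1Δ/Δep libraries. Each symbol is 1 library, with replicate numbers shown by shape, and the bar with its whisker is the mean ± SD of the group. Knockout symbols lie above all control symbols for Ddx58, Ifih1, Dhx58 and Tlr3, and the groups overlap for the other 5 genes.

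Dhx58 (ENSMUSG00000017830, chr11:100694884-100704271, minus strand), which encodes LGP2, was the one gene of the 9 called higher. It stood at 0.465, 0.595 and 0.447 CPM in control libraries 1, 2 and 3 and at 1.38, 1.33 and 2.36 CPM in knockout libraries 1, 2 and 3. The groups did not overlap, and knockout library 3 was the highest. The change was 1.75 on the log2 scale (SE 0.32, 95% interval 0.99 to 2.50) with an adjusted p of 0.018. The gene rested on few reads, 44, 58 and 24 in control and 82, 115 and 279 in knockout libraries. Without control library 2, control library 3 or knockout library 3 the adjusted p was 0.059, 0.054 and 0.051, and with the replicate block it was 0.026. An antisense gene, Dhx58os, covers 4.31% of its exon bases, and the strand setting of the counting is not given in the sources used here.

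Ifih1 (ENSMUSG00000026896, chr2:62595798-62646255, minus strand), which encodes MDA5, was measured at 3.73, 6.25 and 11.2 CPM in control libraries and at 13.3, 14.0 and 20.6 CPM in knockout libraries. Control library 3 lay close below the lowest knockout library, and within each replicate number the knockout library was the higher, by 1.83, 1.17 and 0.88 on the log2 scale. The change of 1.18 (SE 0.39, 95% interval 0.27 to 2.09) did not pass over all genes, with an adjusted p of 0.11. It passed with the replicate block, at 1.29 and an adjusted p of 0.019 from edgeR, and with DESeq2, at 1.15 and an adjusted p of 0.015. Without control library 3 it was 1.68 with an adjusted p of 0.026, and over all 12 alternatives the adjusted p ran from 0.015 to 0.29.

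Tlr3 (ENSMUSG00000031639, chr8:45395665-45411080, minus strand), the endosomal receptor, was at 7.55, 3.67 and 4.77 CPM in control and at 11.9, 7.84 and 9.59 CPM in knockout libraries. The lowest knockout library was just above the highest control library. The change of 0.87 (SE 0.29, 95% interval 0.19 to 1.56) had an adjusted p of 0.12. With the replicate block it was 0.92 with an adjusted p of 0.019, under the 2-fold threshold. Without control library 1, the highest control, it was 1.21 with an adjusted p of 0.019 and was called. The antisense gene Gm45542 covers 7.32% of the Tlr3 exon bases.

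Ddx58 (ENSMUSG00000040296, chr4:40203773-40239828, minus strand), which encodes RIG-I, was the most abundant of the 3 RIG-I-like receptors. Its levels were 77.4, 65.8 and 54.8 CPM in control libraries and 86.7, 89.6 and 81.3 CPM in knockout libraries. The knockout libraries varied little among themselves and all lay above the controls. The change was small, 0.38 on the log2 scale (SE 0.14, 95% interval 0.06 to 0.70), with an adjusted p of 0.14 and of 0.061 with the block. Without control library 1 the adjusted p was 0.032 at a change of 0.51.

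Eif2ak2 (ENSMUSG00000024079, chr17:78852564-78882573, minus strand), the gene of PKR, was the sensor whose libraries did not separate by genotype. Control libraries held 48.7, 43.5 and 53.9 CPM and knockout libraries 53.8, 38.6 and 51.4 CPM. The groups overlapped, with knockout library 2 below every control library. The change was −0.02 on the log2 scale (SE 0.15), with a 95% interval from −0.38 to 0.33 and an adjusted p of 0.96.

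Adar (ENSMUSG00000027951, chr3:89715022-89753446, plus strand), which encodes the editing enzyme ADAR1, was at 73.2, 81.7 and 79.7 CPM in control and 65.5, 80.4 and 82.9 CPM in knockout libraries. Its lowest and its highest value were both in knockout cells. The change was −0.04 (95% interval −0.31 to 0.24, adjusted p = 0.91). Chrnb2, on the opposite strand, overlaps 16.8% of its exon bases.

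The 3 genes below the sensors differed little between the genotypes. Mavs (ENSMUSG00000037523, chr2:131234063-131248025, plus strand), the adaptor shared by RIG-I and MDA5, was at 28.7, 29.4 and 28.3 CPM in control and 25.4, 30.1 and 28.5 CPM in knockout libraries. Tbk1 (ENSMUSG00000020115, chr10:121546455-121586787, minus strand), the kinase that activates IRF3, was at 47.0, 44.7 and 47.5 CPM against 46.9, 43.3 and 47.2 CPM. Irf3 (ENSMUSG00000003184, chr7:44997648-45002848, plus strand), the factor itself, was at 37.8, 37.6 and 34.8 CPM against 34.8, 37.0 and 35.6 CPM. Each of the 3 overlapped between the genotypes. The 95% interval of the log2 change was −0.29 to 0.21 for Mavs, −0.23 to 0.19 for Tbk1 and −0.26 to 0.18 for Irf3, with adjusted p values of 0.88, 0.94 and 0.87. RNA levels do not report the phosphorylation by which TBK1 and IRF3 act.

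**Figure D2:**
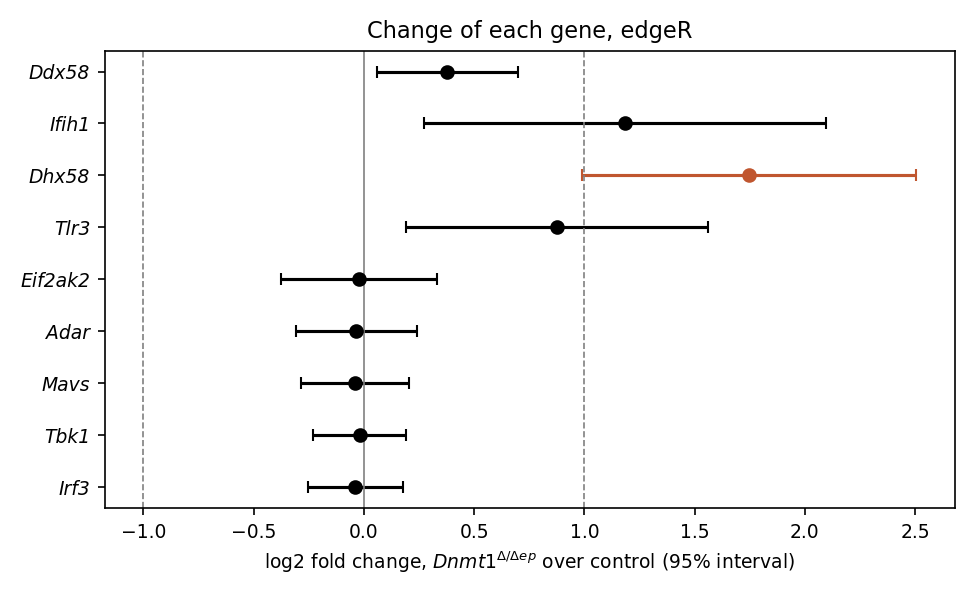
Log2 fold change of each gene in Dnmt1Δ/Δep over control (horizontal axis) from edgeR, with its 95% interval. The solid line marks no change and the dashed lines a 2-fold change. Dhx58, in orange, is the gene called higher at 1.75. The intervals of Ifih1, Tlr3 and Ddx58 lie above 0, and those of the other 5 genes span it.

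Counted together, 1 of the 9 genes was called higher (11.1%) and none lower, beside 6.03% and 0.392% of all genes. At an unadjusted p of at most 0.05 and the same fold, 2 were higher (Ifih1, Dhx58) and 0 lower, beside 9.54% and 0.897% of all genes. DESeq2 called the same 2 genes higher and 0 lower, beside 6.94% and 0.606% of the genes to which it gave an adjusted p. At the adjusted p alone 1 of 9 was higher, beside 7.71% of all genes, and 3 of 9 were with the replicate block (Ifih1, Dhx58, Tlr3), beside 10% of all genes. The block raised the number called from 1 to 2, beside 6.97% of all genes, the added gene being Ifih1. Without control library 2 or knockout library 3 none was called, and without control library 1 the genes called were 2, Dhx58 and Tlr3. All 3 knockout libraries lay above all 3 control libraries for 4 of 9 genes (44.4%), beside 18.2% of all genes tested, and below them for 0 of 9, beside 11.7%. The median change of the 5 sensors was 0.87 and that of the 4 other genes −0.04 on the log2 scale, with −0.00089 over all genes tested.

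The balance of sensor to adaptor transcript followed from these levels. The summed RPKM of Ddx58, Ifih1 and Dhx58 over that of Mavs was 1.35, 1.17 and 1.10 in control libraries and 1.89, 1.65 and 1.74 in knockout libraries. The groups did not overlap, and Ddx58 made up most of the sum. In bulk RNA a change in the share of cells that express a gene cannot be told apart from a change in RNA per cell.

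Among retroelements of the same libraries, several LTR families were higher in knockout cells, IAP and RLTR10 elements by far wider margins than any of the 9 genes, while other families overlapped between the genotypes. LTR retroelements, the relics of retroviruses, gave 3.53, 2.57 and 2.87 reads per 100 gene reads in control libraries and 17.4, 15.9 and 17.1 in knockout libraries, 5.63-fold higher. The exact two-sided permutation p was 0.1, the smallest that 3 against 3 can give. As a share of all repeat reads the LTR class was 2.26-fold higher, the repeat total having been 10.1 ± 1.84 reads per 100 gene reads in control and 25.2 ± 2.71 in knockout libraries. IAP elements, a mouse retrovirus family known to be silenced by DNA methylation, gave 0.170, 0.150 and 0.263 reads per 100 gene reads in control and 9.01, 8.32 and 8.85 in knockout libraries, 45.0-fold higher (exact permutation p = 0.1) and 17.6-fold higher as a share of repeat reads. A single IAP entry, the internal sequence IAPEz-int, took 1433 ± 492 repeat reads per 1000000 gene reads (RPM) in control and 71301 ± 2554 in knockout cells.

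The families differed widely in how far they moved. MLV and VL30 elements gave 1.11 ± 0.181 reads per 100 gene reads in control and 4.76 ± 0.152 in knockout libraries (SD, n = 3), RLTR10 elements were 27.5-fold and ETn and MMERVK elements 2.70-fold higher, each with no overlap between groups and an exact permutation p of 0.1. As a share of repeat reads, MLV and VL30 elements were at 11.0% ± 0.519 in control and 19.0% ± 1.97 in knockout libraries, RLTR10 elements at 0.182% ± 0.0335 and 1.98% ± 0.0564, and ETn and MMERVK elements at 2.19% ± 0.195 and 2.37% ± 0.165. MERVL and MaLR elements were 1.29-fold and 1.32-fold higher with overlapping groups. Young L1 elements gave 0.524, 0.366 and 0.342 against 0.947, 0.628 and 0.664 reads per 100 gene reads, but 4.04% ± 0.301 against 2.94% ± 0.379 of repeat reads. Among them L1Md_F2 was called higher at 1.12 on the log2 scale, while L1Md_A was at 1085 ± 149 and 1045 ± 87.8 RPM. SINE elements, whose inverted copies can fold back into duplexes, were at 2.81 ± 0.413 and 3.33 ± 0.570 reads per 100 gene reads (exact permutation p = 0.3), and 0 of 36 SINE names were called in edgeR, at adjusted or unadjusted p, and 0 in DESeq2. Within each replicate number the knockout library had more reads of these overlapping groups too, with ratios of 1.20, 1.12 and 1.22 for SINE, 1.21, 1.17 and 1.24 for LINE, 1.26, 1.22 and 1.38 for MERVL and 1.31, 1.24 and 1.39 for MaLR elements. As a share of repeat reads the direction turned for these groups, from 27.9% to 13.1% for SINE, from 24.8% to 12.0% for LINE, from 0.865% to 0.444% for MERVL and from 4.92% to 2.58% for MaLR elements.

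**Figure D3:**
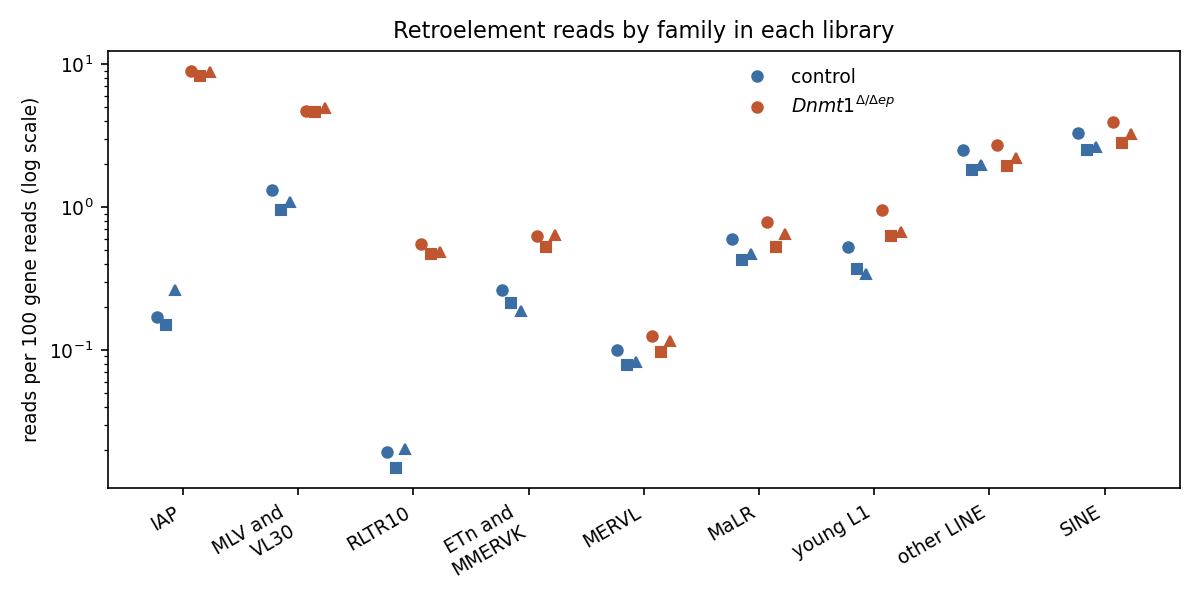
Reads of 9 retroelement families per 100 gene reads (vertical axis, log scale) in each library, blue for control and orange for Dnmt1Δ/Δep, with replicate 1, 2 and 3 as circle, square and triangle. IAP reads lie between 0.150 and 0.263 in control and between 8.32 and 9.01 in knockout libraries, while SINE and other LINE reads overlap between the genotypes.

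Name by name, 77 of 938 repeat names (8.21%) were called higher in edgeR over all repeat counts, 73 of them retroelements. These were 69 of 555 LTR names, 21 of the 24 IAP names among them, and 4 of 135 LINE names. That fit scales repeats to each other. With the library sizes of the gene counts the median retroelement change moved from −0.01 to 0.36 on the log2 scale and 88 retroelement names were called, and with upper-quartile factors it moved to −0.25 and 60 were called. The deposited table has 1 count per name, with no strand and no position, so it does not show whether both strands of any element were transcribed.

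Set side by side, the levels of 4 sensors and LTR reads were both higher in the knockout libraries, and within a genotype the order of the libraries differed from gene to gene. Tlr3 had the same order as LTR reads in both genotypes, library 1 highest, then 3, then 2, whereas Ddx58, Ifih1 and Dhx58 had the LTR order in neither. Same-numbered libraries shared a lane, so the orders in control and knockout libraries are not independent. A match of order in 1 of 4 genes was not tested. Among controls, library 1 had the most LTR reads and the most Ddx58 and Tlr3, but the least Ifih1. Control library 3 had the most IAP reads, at 0.263 per 100 gene reads, and the most Ifih1, at 11.2 CPM, but the least Ddx58. Among knockout libraries, library 1 had the most LTR and IAP reads and the most Tlr3, while Ifih1 and Dhx58 were highest in library 3. LTR reads spanned 15.9 to 17.4 per 100 gene reads across the knockout libraries, whereas Dhx58 spanned 1.33 to 2.36 CPM. The libraries form separate clusters by genotype with 3 in each, so no correlation across them is given.

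**Figure D4:**
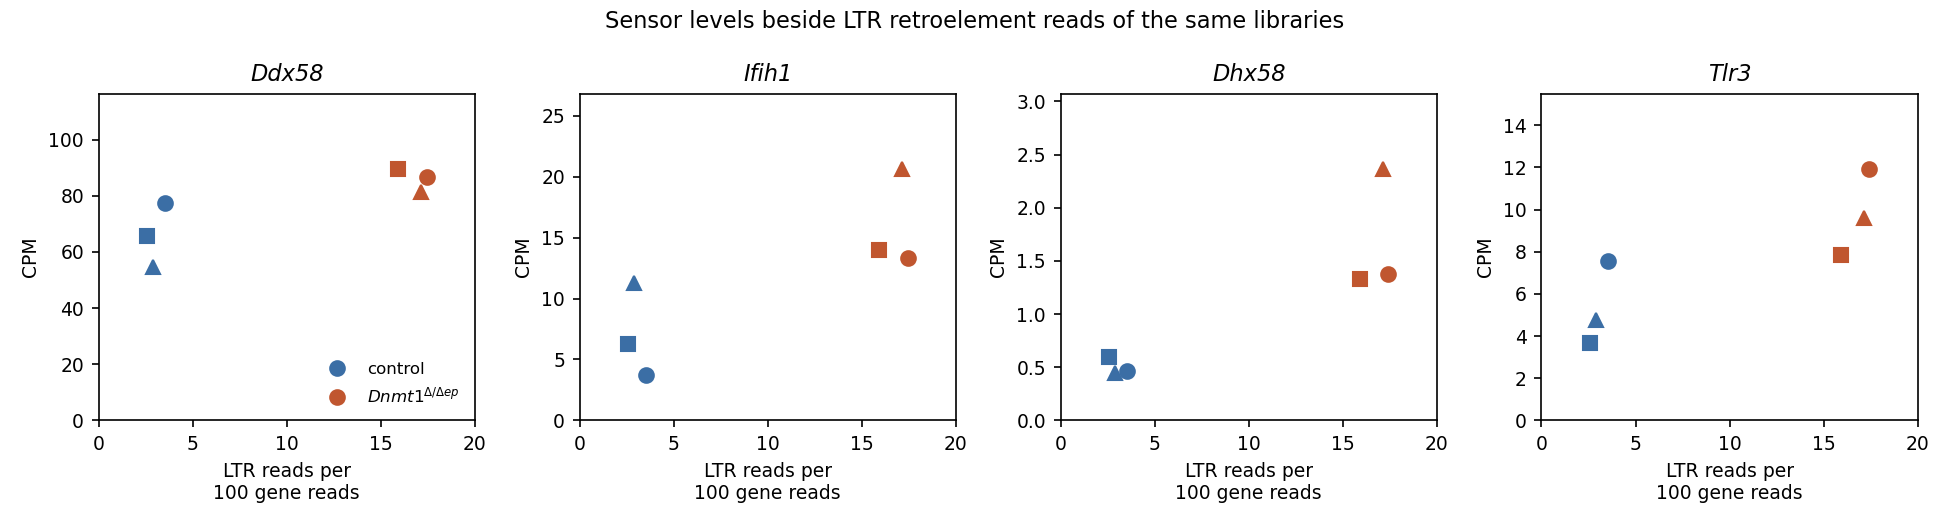
Level of Ddx58, Ifih1, Dhx58 and Tlr3 in CPM (vertical axes, from 0) against LTR retroelement reads per 100 gene reads (horizontal axes) in the same 6 libraries, blue for control, orange for Dnmt1Δ/Δep, with replicate 1, 2 and 3 as circle, square and triangle. Control libraries sit between 2.57 and 3.53 and knockout libraries between 15.9 and 17.4 on the horizontal axis, and within either cluster the order of the libraries differs from gene to gene.

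Other genes of the pathway were read from lists that hold 124 genes, of which 99 could be tested. Of these 11 were called higher, beside 6.03% of all genes, and 0 lower. The unadjusted p at the same fold gave 12 higher, beside 9.54% of all genes, and 0 lower, and DESeq2 gave 12 higher, beside 6.94%, and 0 lower. Their median change was 0.02 on the log2 scale. Among 18 other RNA sensors 6 rose. They were Oas1a (2.35), Oas1g (2.79), Oas2 (4.09) and Oas3 (3.26), which make a second messenger of the antiviral response, Ddx60 (3.79), a helicase, and Ifit1 (3.39), which binds RNA lacking the host's cap marks. All were scarce. By mean CPM Oas3 stood highest of the 6, at 0.370, 0.390 and 0.856 CPM in control and 5.27, 4.43 and 5.48 CPM in knockout libraries. Per length of transcript Oas1a did, at mean RPKM of 0.267 in control and 1.33 in knockout libraries, against 0.0762 and 0.715 for Oas3. The fitted changes of Oas2 and Ddx60 rest on 0 to 2 and 1 to 7 reads per control library. Ifit3 (1.98, adjusted p = 0.080) and Dhx9 (−0.26, adjusted p = 0.19) did not pass. The Oas genes are near copies of each other, so reads may have been divided or dropped among them.

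Around the receptors, most genes did not pass the test, which called 6.03% of all genes higher. Of 20 regulators of the RIG-I-like receptors, Nlrc5, a NOD-like receptor known to act on MHC class I genes and on MAVS signalling, rose by 4.65 on the log2 scale, from 0.666, 1.31 and 2.25 CPM to 33.4, 27.2 and 43.7 CPM. Trim25, the ubiquitin ligase for RIG-I, passed the adjusted p (0.0096) at a change of 0.65, under 2-fold. Nlrx1 (0.44, adjusted p = 0.057) and Rnf135 (−0.44, adjusted p = 0.16) did not. Of 9 partners of TLR3, the RNA-binding coreceptor Mex3b rose (1.55), while Hsp90b1 (0.39), Ripk3 (0.33) and Ripk1 (−0.27) had adjusted p values of 0.11, 0.22 and 0.30.

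Below MAVS and TRIF, 2 of 18 genes were called higher, beside 6.03% of all genes, a share that stands beside each list below too. They were Tbkbp1 (1.25), a TBK1-binding adaptor, and Tnfaip3 (1.39), which encodes the inhibitor A20. Ikbke, the kinase closest to TBK1, passed the adjusted p (0.015) at 0.89, under 2-fold, while Traf2 (−0.30) and Optn (0.68) had adjusted p values of 0.13 and 0.14. Of 10 transcription factors Irf1 rose (1.96), from 4.25, 3.86 and 5.57 CPM to 16.6, 18.3 and 18.4 CPM, whereas Irf9 (0.73), Jun (−0.18) and Irf7 (0.40) had adjusted p values of 0.18, 0.28 and 0.58. None of the 8 genes of the PKR axis was called at adjusted or unadjusted p, and the lowest adjusted p values were those of Dnajc3 (0.31, adjusted p = 0.060), Ddit3 (0.46, adjusted p = 0.11) and Ppp1r15b (0.23, adjusted p = 0.19). Of 16 genes of RNA editing, processing and decay none passed both thresholds, at adjusted or unadjusted p. Pnpt1, a mitochondrial RNA exonuclease, passed the adjusted p (0.026) at 0.63, and Rnaseh2b, a subunit of RNase H2, passed it (0.046) at −0.36.

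The number of pathway genes called fell from 11 to 10 without control library 1 or 3, to 4 without control library 2, to 6, 7 and 5 without knockout library 1, 2 and 3, and to 6 when genes under 1 RPKM in both groups were left out. Over all genes, the number called higher moved from 1014 to 1183, 559 and 915 without control library 1, 2 and 3. It was 591, 682 and 761 without knockout library 1, 2 and 3, and 395 with the RPKM filter. Oas3, Nlrc5, Tnfaip3 and Irf1 were called in all 6 fits that left out a library. Oas1a was called in 4 of those 6, Oas2, Mex3b and Tbkbp1 in 3, Ddx60 and Ifit1 in 2 and Oas1g in 1.

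**Figure D5:**
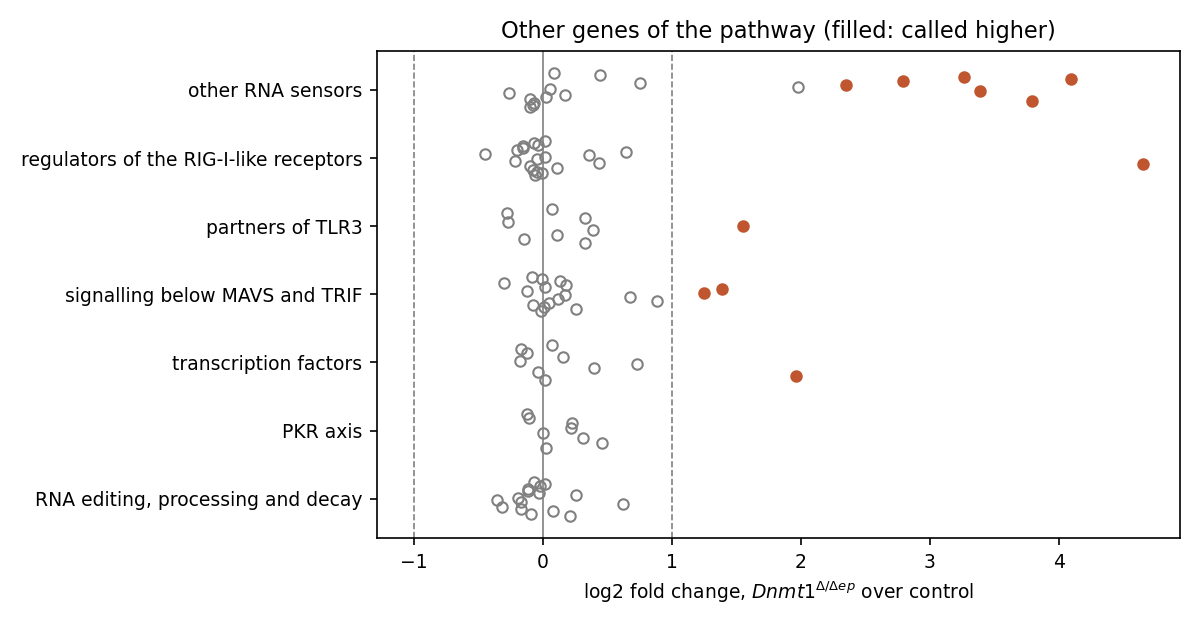
Log2 fold change in Dnmt1Δ/Δep over control (horizontal axis) of the 99 tested pathway genes, 1 circle a gene, in rows by role. Filled circles are the 11 genes called higher, 6 of them in the row of other RNA sensors. The solid line marks no change and the dashed lines a 2-fold change.

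Interferon genes, the outputs of this pathway, were at the limit of detection. Of 20 type I and type III interferon genes, 14 had 0 reads in every library (Ifna2, Ifna4, Ifna5, Ifna6, Ifna7, Ifna9, Ifna11, Ifna12, Ifna13, Ifna14, Ifna15, Ifna16, Ifnl2 and Ifnl3), which allows up to 0.0254 to 0.0558 CPM each, depending on the library. Ifnb1 had 0 reads in each control library and 0, 1 and 2 reads in the knockout libraries. Ifnz had 0, 0 and 2 reads against 2, 0 and 5, and Ifna1, Ifnab, Ifnk and Ifne had 1 read each in all. All 20 genes together held 0, 2 and 2 reads in control and 3, 2 and 7 reads in knockout libraries, so a difference was not detectable at this depth. These limits cover counting error only, and the near-identical Ifna copies can lose reads that align to more than 1 of them.

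Markers of other cell types were looked at because immune cells carry their own RNA sensors. Of all genes, 6.03% were called higher, and 9.54% were higher at the unadjusted p and 2-fold. Of 14 macrophage and dendritic cell markers, 6 could be tested and 2 were called higher, Csf1r, at 0.786 to 2.42 CPM in knockout libraries, and Itgam, whose exon bases overlap those of Gm49368 by 68.7%. Their summed level was 50.9 to 66.6 CPM in control and 105 to 121 CPM in knockout libraries, nearly all of it Cd68, and the defining markers Adgre1 and Cd207 had 1 read each, both in knockout library 3. All 6 tested markers had positive changes and 3 passed the adjusted p, Cd68 among them at 0.97 (adjusted p = 0.0041), under 2-fold. Cd74 had 0, 0 and 7 reads in control and 29, 14 and 43 in knockout libraries, with an adjusted p of 0.14. T cell markers summed to 1.08 to 2.40 against 1.39 to 1.62 CPM, with Cd3g and Trbc1 at 0 throughout. Neutrophil markers summed to 49.5 to 127 against 192 to 255 CPM, with Csf3r at 0. Of 3 neutrophil markers tested 2 were called higher, S100a8 and S100a9, which carry the sum and which keratinocytes also express, and at the unadjusted p Cxcr2 was higher too. Mast cell markers summed to 3.55 to 8.51 against 11.0 to 15.1 CPM, with Cpa3, Mcpt4 and Fcer1a at 0. Both mast cell markers that could be tested had positive changes, of which 0 passed the adjusted p and 1 the unadjusted p at 2-fold.

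Markers of other cells that an epidermal culture can hold were also summed. The 6 melanocyte markers summed to 221 to 564 CPM in control and 676 to 897 CPM in knockout libraries, which do not overlap. All 6 had positive changes (median 0.87 on the log2 scale), with 0 called by edgeR at the adjusted p and 1 at the unadjusted p. The 7 fibroblast markers summed to 14.5 to 31.6 against 14.7 to 63.5 CPM, which overlap. All 7 had positive changes (median 1.26), with 0 called at the adjusted and 2 at the unadjusted p. Of 5 endothelial markers 4 could be tested, with 3 positive changes and 1 negative (−0.16). Pecam1 and Cdh5 were called higher, beside 6.03% of all genes. The endothelial sum was 5.29 to 17.3 against 14.5 to 22.1 CPM, which overlap. The part of melanocyte, fibroblast, endothelial or macrophage RNA in the higher Dhx58, Ifih1 and Tlr3 values was not tested.

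Genes with the most similar profile over the 6 libraries were named by the Pearson correlation of log2 CPM among 12462 genes with a mean of at least 1 CPM, as a description. For Ddx58 they were Got1 (r = 0.999), Spry1 and Slc25a43, and for Ifih1 the non-coding K230010J24Rik (r = 0.995), Jak2 and Osmr. For Dhx58 they were App (r = 0.997), Slc22a5 and Steap3, and for Tlr3 Lpgat1 (r = 0.994), Sec63 and Csgalnact1. For Eif2ak2 they were Zfp959 (r = 0.997), mt-Cytb and Fmr1. No pathway gene was among them, which with 3 genes named per member out of 12462 was not a test. Scarce pathway genes such as Oas2 and Ddx60 lay under the limit of 1 CPM and could not be named. All points share the contrast between genotypes and the sequencing lanes.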

How the data were processed

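Gene expression and repeat RNA were measured by RNA-seq in 3 control and 3 Dnmt1Δ/Δep keratinocyte cultures. The deposited values were raw counts: the authors aligned trimmed reads with STAR, counted genes with htseq-count in union mode, and counted repeats from a separate bowtie alignment to MGSCv37 with RepEnrich, which divides multi-mapping reads among repeat names. A read from a repeat inside a transcript can therefore count in both tables. The labels name GRCm38 for the genes, whereas the methods name a human index. Reads in no gene (8.73% to 12.9%) were left out. Identifiers were matched to GENCODE M21 symbols for 97.5% of genes, and positions are of GRCm38.

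Counts were tested with edgeR 4.0.16 in R 4.3.3 (quasi-likelihood, TMM, filterByExpr with a minimum count of 10, Benjamini-Hochberg over all genes), as in the study's thresholds of a 2-fold change and an adjusted p of at most 0.05. DESeq2 1.42.0, other scalings and filters, a replicate block and leaving out each library were alternatives. The scripts were tested on simulated data. RPKM used merged exon length. Retroelement families were read from repeat names and compared by exact permutation over libraries. Same-numbered libraries shared a flow cell lane in the file headers, and their deviations from the group means correlated at 0.43, 0.28 and 0.30 over genes and at 0.63, 0.48 and 0.46 over repeats, which was taken as pairing. The labels speak of 3 mice per genotype, and p-values measure the spread between these cultures.

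The genes, pathway lists and marker lists were chosen with earlier results of these data known. Named genes are the 9 members, each pathway gene called, the 3 of each list not called with the lowest adjusted p, and those with 0 counts throughout. Some genes that this rule names are not reported here. MLT names other than MLT1 and MLT- were not put with MaLR. The authors' tables of fold changes and p-values, with 12 columns of normalized values per library, were not used.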

Additional observations from a re-analysis of the deposited data

How the results depend on the processing

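Over 12 alternatives no gene of the 9 was called lower. The number called higher was 1, and it was 2 with no filter on low counts, 2 with DESeq2, 2 with the replicate block, 0 when genes under 1 RPKM were left out (which leaves Dhx58 untested), and 0 to 2 when single libraries were left out. The number past the adjusted p alone was 1, and it was 2 with no filter, 0 with the RPKM filter, 3 with DESeq2, 3 with the replicate block, and 0 to 3 without single libraries. Dhx58 was called in 8 of 11 alternatives, Ifih1 in 4 of 12 and Tlr3 in 1 of 12. Of pathway genes called higher, 11 at first, 6 were left by the RPKM filter, which tests fewer genes, and 4 to 10 without single libraries. Changes of Eif2ak2 (−0.11 to 0.059), Mavs (−0.15 to 0.024) and Adar (−0.13 to 0.063 on the log2 scale) took either sign when single libraries were left out, never called. Over all genes, 1014 were called higher and 66 lower, and the extremes were 395 and 35 with the RPKM filter, 1396 and 122 with DESeq2, 559 and 15 without control library 2 and 1183 and 180 without control library 1. LTR reads stayed 2.26-fold to 6.18-fold and IAP reads 17.6-fold to 54.7-fold higher, and 60 to 88 retroelement names were called. The replicate block changed the call of no other gene of the 9 than Ifih1. Depth limits the interferons, with 7 reads at most in a library, and scarce genes such as Oas2, Ddx60 and Dhx58. The cause of these shifts was not tested.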
